A study of Mus musculus with 5 samples.

Results

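Nucleolar ribosome assembly factors are proteins that process pre-ribosomal RNA and fold it with ribosomal proteins into the small and the large ribosomal subunit. The 40 genes described here encode such factors of both subunits. Genes of snoRNP core proteins and of RNA polymerase I were kept apart. They were chosen by symbol, with earlier results of this treatment comparison known, and selected on a count of at least 10 summed over the 5 libraries. All 40 of the 23337 listed genes met that minimum. The closest to it was Noc3l with 1293 counts in all, and no symbol fell below it. All 40 were also among the 11299 genes tested for a treatment difference. Since the comparison of treatments was known when the genes were chosen, the treatment values below describe these genes and support nothing further.

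The libraries come from OT-I CD8+ T cells of strain C57BL/6J CD45.1 OT-I, whose transgenic receptor recognises an ovalbumin peptide. Donor mice were 6 to 12 weeks old. The cells were activated with anti-CD3 and anti-CD28, grown in IL-2 until day 5 or 6, and injected into the blood of mice carrying a B16-OVA melanoma, whose strain and age are not given. On days 3 and 6 after transfer 1 group received 200 µg of the PD-L1 antibody 10F.9G2 per mouse, and the other the same amount of an anti-KLH rat IgG2b, called Control IgG. The transferred cells were sorted from the tumors as live CD8+ CD45.1+ cells on day 8, or earlier where a tumor had grown to 1.2 cm. Every library pools several mice of 1 group, and there were 3 Control IgG and 2 anti-PD-L1 libraries. Nothing in the labels says which mice, days or RNA kits (2 are named) went into each library. The p-values therefore rest on the spread of these pools, part of which may be technical.

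Counts assigned to genes ran from 9985943 to 12830485 per library. The libraries numbered 1 stood apart from the others: Control IgG replicate 1 had 11696 genes with a count and anti-PD-L1 replicate 1 had 11977, against 13564 to 13801 in the other 3, and reads outside any gene made up 9.02% and 7.46% in them against 11.2% to 15.2%. The 2 libraries numbered 1 were also unlike each other. Their chi-square per degree of freedom on raw counts was 92.3, the largest of any pair, against 19.2 to 21.7 among the other 3. Summed CPM of 7 T cell markers (Cd3d, Cd3e, Cd3g, Cd8a, Cd8b1, Ptprc and Thy1) lay between 6949 and 8482 in every library. Of other cell types, summed CD4 T cell markers (Cd4, Cd40lg and Foxp3) ranged from 12.9 to 24.7 CPM in controls, with 11.5 and 20.0 CPM after anti-PD-L1. Cd4 itself, which marks helper T cells, did not exceed 1.30 CPM in any library. Cd40lg reached 21.9 CPM in Control IgG replicate 1, and Foxp3 6.51 CPM in Control IgG replicate 2. Summed melanoma markers ranged from 4.03 CPM in Control IgG replicate 1 to 299.9 CPM in Control IgG replicate 2, with 40.1 and 103 CPM after anti-PD-L1. Summed myeloid markers ranged from 70.3 to 164 CPM in controls, with 71.8 and 106 CPM after anti-PD-L1. The part of these markers in the values below was not tested.

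A ribosome begins in the nucleolus, where RNA polymerase I transcribes a long precursor RNA. The small subunit processome forms on its front end, separate large subunit factors assemble on the rest, and helicases, GTPases, methyltransferases and nucleases then drive the particles towards the cytoplasm. T cells enlarge their nucleoli when they are activated, and the transcription factor MYC is a known activator of many of these genes, through E-box sequences among others. A bulk measurement such as this cannot tell apart fewer cells with high levels and less RNA per cell.

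Levels differed widely among the 40 genes. Per kilobase of coding sequence, in the mean of the controls, nucleophosmin (Npm1), an abundant histone chaperone and scaffold of the outer nucleolus, stood highest at 2688 CPM per kb. Nucleolin, an RNA-binding protein that acts in ribosomal RNA transcription and early processing, followed at 665.8 CPM per kb. Nop16 at 283, Ebna1bp2 at 281, Nip7 at 251 and Emg1 at 239 CPM per kb came next, and the ranges of these 4 genes over the 3 controls overlapped. The lowest per kilobase were the very long Utp20 and Heatr1 at 4.56 and 8.86 CPM per kb, Noc3l at 9.55 and Rrp12 at 12.3 CPM per kb. Coding length leaves out the untranslated ends, and the coverage of the chemistry along a transcript is not known, so this order is approximate. Npm1 reads may also be shared with its processed copies elsewhere in the genome, and how multiply mapping reads were treated is not given in the sources used here.

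The start regions of 34 of the 40 genes were found in the RefSeq promoter table (GRCm38.p6, 250 bases before to 50 after each start, 38 windows). The palindromic E-box CACGTG, a site type bound by MYC with its partner MAX, occurred in 8 of these 34 genes (23.5%), against 12.2% of 8141 tested genes with a window. By window it was in 21.1% of the 38, against 7.15% of all 32851 windows in the table. The latter include genes not tested here, and a share by window over tested genes alone was not computed. Of 5 other motifs searched on both strands, the ETS-type core GGAAGT occurred in 21 of 34 genes (61.8%, against 34.3%), CACGCG in 11 (32.4%, against 20.4%), CCAAT in 11 (32.4%, against 43.6%), CTCGCGAG in 1 (2.94%, against 2.24%) and TATAAA in 1 (2.94%, against 8.56%). None of the 6 motifs contains another, though neighbouring matches can share end bases. A match is a run of letters and says nothing of binding.

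The 8 E-boxes are shown because all of them lie close to a start, from 60 bases before it to 40 after it. Each line gives the gene strand from 5′ to 3′ with up to 10 bases on either side and the E-box in capitals. In order, they lie at chr10:13193094-13193119 (minus strand), chr11:72441357-72441376 (plus), chr6:125131813-125131838 (plus), chr11:3963967-3963992 (plus), chr11:74898094-74898119 (plus), chr11:93885771-93885796 (minus), chr10:88826765-88826787 (minus) and chr17:71616222-71616247 (plus).
Ltv1: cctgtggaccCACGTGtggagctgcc
Mybbp1a: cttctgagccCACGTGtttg
Nop2: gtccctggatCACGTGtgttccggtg
Pes1: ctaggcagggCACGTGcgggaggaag
Tsr1: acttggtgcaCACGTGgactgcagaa
Utp18: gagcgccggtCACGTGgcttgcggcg
Utp20: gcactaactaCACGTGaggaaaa
Wdr43: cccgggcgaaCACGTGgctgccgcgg

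For contrast, the 250 bases before the start of nucleolin, the gene with the smallest p of the 40, held none of the 6 motifs. They lie at chr1:86359456-86359705 on the minus strand and are printed without capitals for that reason.
Ncl: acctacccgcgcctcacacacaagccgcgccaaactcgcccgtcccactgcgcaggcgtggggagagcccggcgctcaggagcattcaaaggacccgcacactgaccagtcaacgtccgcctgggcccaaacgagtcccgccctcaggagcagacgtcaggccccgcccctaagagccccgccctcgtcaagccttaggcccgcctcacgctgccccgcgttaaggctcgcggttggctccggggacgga

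Several members carry other RNA genes inside them. In GENCODE vM21 on GRCm38, introns of Ncl, Gnl3, Wdr43 and Tsr1 hold 11 snoRNA genes on the same strand, among them Snord82 and Snora75 in Ncl, Snord19 and Snord69 in Gnl3, Snord53 and Snord92 in Wdr43 and Snord91a in Tsr1. Such hosts made up 10.0% of the 40 genes and 1.74% of 9916 tested protein-coding genes. Those of the 11 that the count files list by symbol had at most 12 counts in any library, after a poly(A) selection that does not capture mature snoRNAs by design. The 40 genes lie on 15 chromosomes, at most 7 of them on 1 (chromosome 11).

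The comparison of treatments asked how the transcriptome of these tumor-infiltrating cells differs after PD-L1 blockade. In edgeR's quasi-likelihood test 0 of the 40 genes passed an adjusted p of 0.05, as did 0% of all 11299 tested genes, the smallest adjusted p being 0.9999. DESeq2 and limma-voom also passed 0 of the 40. At an unadjusted p under 0.05, 11 of the 40 were lower and 0 higher, where 0.947% of all tested genes were lower and 1.19% higher, so that 0 of 40 higher is near the share of all genes. The values themselves leaned to 1 side. Of the 40 log2 fold changes (anti-PD-L1 over Control IgG), 39 were below 0, against 51.9% of all tested genes, with a median of -0.52 against -0.02 over all tested genes. Both anti-PD-L1 libraries lay below every control for 26 of the 40 (65.0%), against 9.58% of tested genes, and above every control for 0, against 7.74%.

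**Figure D1:**
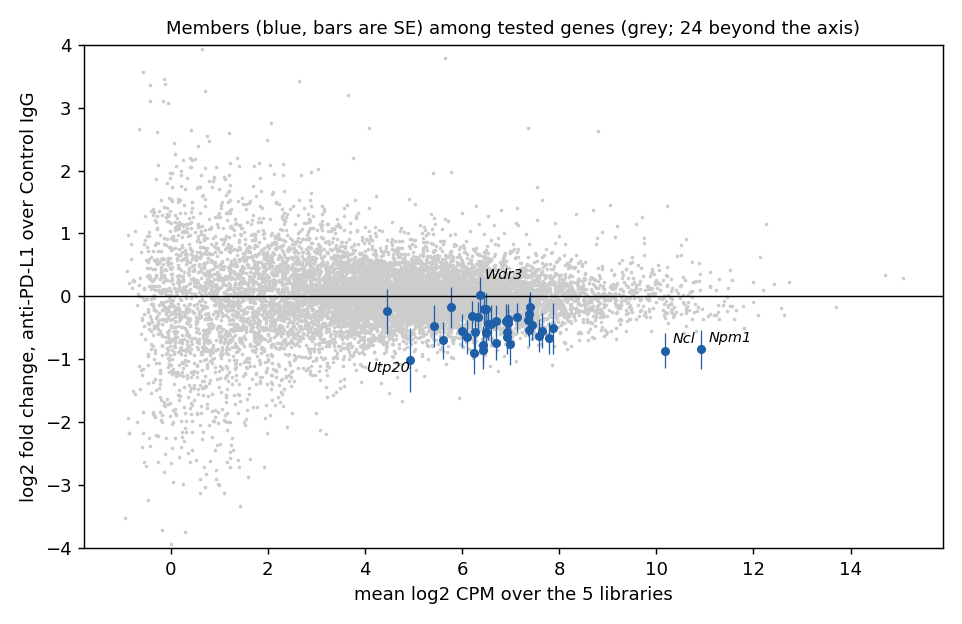
Log2 fold change of each tested gene (vertical axis, anti-PD-L1 over Control IgG) against its mean log2 CPM (horizontal axis), with the 40 members in blue with standard errors and other genes in grey. All members but Wdr3 lie below 0 (with library totals only, Wdr3 also does, at -0.025), and Ncl and Npm1 stand apart on the right by their level.

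Summed over the 40 genes, the share of library counts was 0.889%, 0.855% and 0.816% in controls 1, 2 and 3. After anti-PD-L1 it was 0.438% in replicate 1 and 0.656% in replicate 2. The 95% Wilson intervals of the closest pair were 0.811% to 0.821% in Control IgG replicate 3 and 0.652% to 0.661% in anti-PD-L1 replicate 2, which cover counting error only. Both shares after anti-PD-L1 lay below all 3 controls. Ncl and Npm1 alone made up 0.332% to 0.417% in controls and 0.155% and 0.263% after anti-PD-L1.

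The 2 anti-PD-L1 libraries differed in their distance from the controls. The median member lay at -0.68 on the log2 scale from the control mean in replicate 1 and at -0.37 in replicate 2, while the controls themselves lay at 0.20, -0.10 and -0.06. Replicate 1 was below every control for 35 of the 40, against 30.7% of tested genes, and replicate 2 for 29, against 20.9%. Across the 5 libraries, 33 members were lowest in anti-PD-L1 replicate 1 (82.5%, against 28.0% of tested genes), and 29 were highest in Control IgG replicate 1 (72.5%, against 28.2%). Both of these are the libraries with fewer detected genes. Between those 2 libraries alone the median log2 CPM difference was -0.86 with 38 members lower, against 50.3% of tested genes. Without them, with a single anti-PD-L1 library against the mean of 2 controls, the same measure was -0.28 with 37 lower. Of all tested genes 48.6% were lower there.

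**Figure D2:**
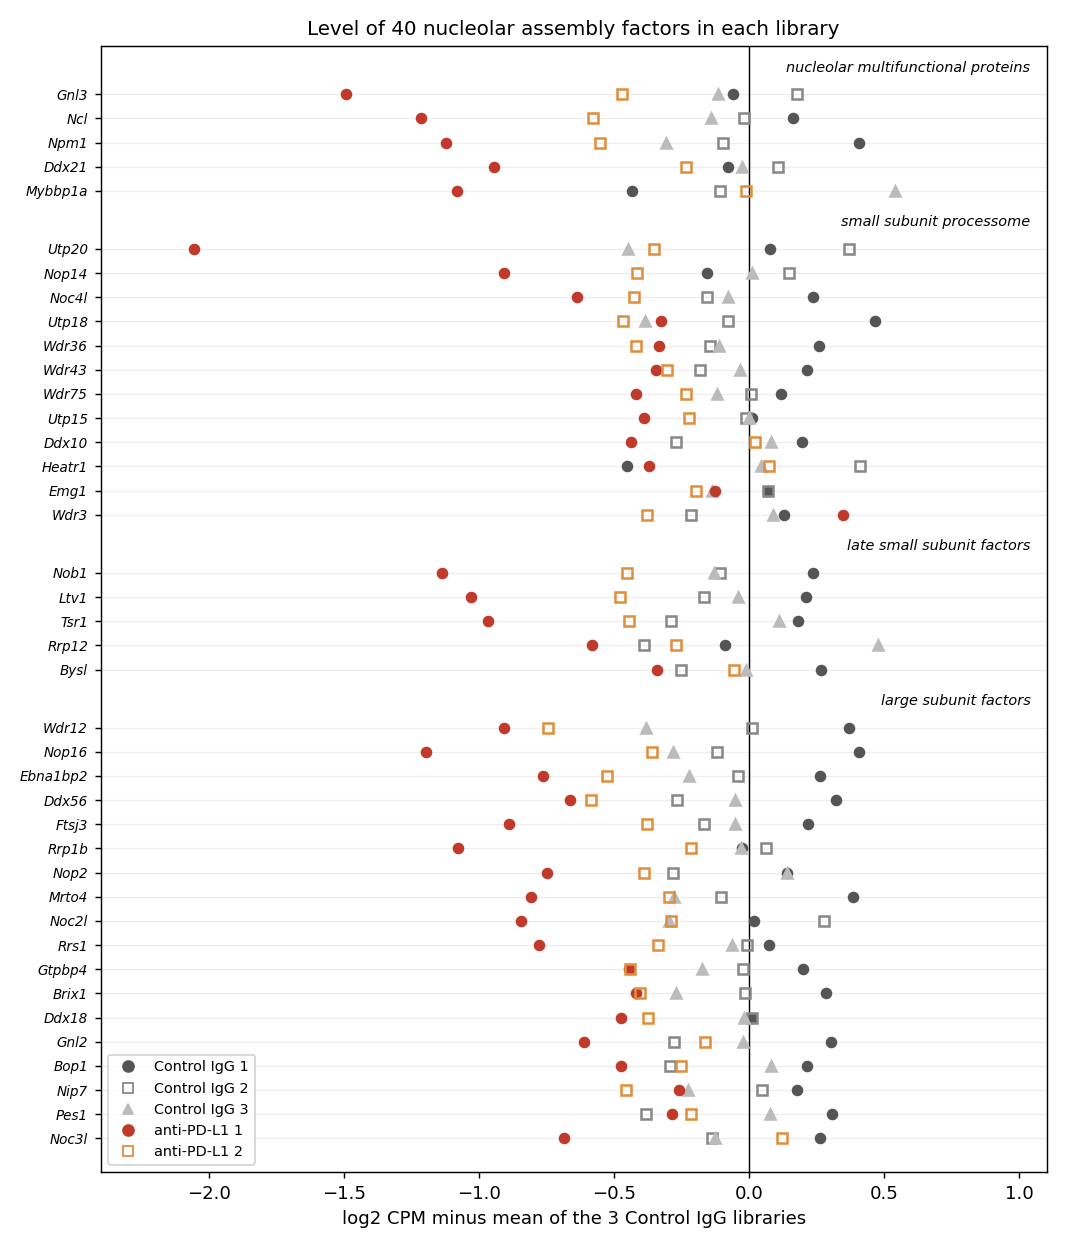
Log2 CPM of each of the 40 genes in each of the 5 libraries, as the difference from the mean of the 3 controls (horizontal axis), grouped by role. Red and orange points, the anti-PD-L1 libraries, lie left of all grey control points for 26 genes, and the largest distance is that of Utp20 in anti-PD-L1 replicate 1.

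Of the nucleolar proteins that act at several steps (Ncl, Npm1, Gnl3, Ddx21 and Mybbp1a), all 5 had a fold change below 0, with a median of -0.84. Of all tested genes, 51.9% had one below 0. Ncl stood at 1573, 1387 and 1277 CPM in Control IgG replicates 1, 2 and 3, and at 607 and 943 CPM in anti-PD-L1 replicates 1 and 2. The highest treated value was thus under the lowest control, and the ratio of group means was 0.549, with a log2 fold change of -0.87 ± 0.28 (SE). Npm1 stood at 3052, 2154 and 1858 CPM in controls, and at 1059 and 1571 CPM after treatment. Its groups did not overlap either, the control spread being wider than that of Ncl, and the fold change was -0.84 ± 0.31.

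Nucleostemin (Gnl3) is a nucleolar GTPase of stem and dividing cells that acts in large subunit processing. It had 89.4, 105 and 86.1 CPM in controls, and 33.0 and 67.3 CPM after treatment. The groups did not overlap, and the fold change was -0.90 ± 0.34. Ddx21, a DEAD-box RNA helicase that links polymerase I transcription to processing, had 217, 247 and 225 CPM in controls, and 119 and 195 CPM after treatment. These groups were apart as well, by a narrow margin in replicate 2, with a fold change of -0.55 ± 0.28. Mybbp1a, a nucleolar regulator of ribosomal RNA synthesis, had the widest ratio of highest to lowest control of all members, 1.97, at 188, 236 and 370.0 CPM. Its treated values of 120.2 and 252 CPM overlapped them, and its fold change of -0.51 ± 0.40 was -0.07 without anti-PD-L1 replicate 1.

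The small subunit processome is the large early particle in which the precursor of the small subunit RNA is folded and cut. Its 12 members had a median of -0.33, with 11 below 0, against 51.9% of all tested genes. Both anti-PD-L1 libraries lay below every control for 6 of the 12, against 9.58% of all tested genes. Of the UTP-A module, which joins the precursor first, Utp15 had 80.7, 79.5 and 80.1 CPM in controls, and 61.1 and 68.6 CPM after treatment. The controls agree within 1.01-fold there and the treated values lie under them, with a fold change of -0.30 ± 0.23. The other UTP-A members had fold changes of -0.33 ± 0.24 for Wdr75, -0.33 ± 0.24 for Wdr43 and -0.17 ± 0.32 for Heatr1, and Heatr1 overlapped the controls.

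Wdr3, of the UTP-B module, was the exception among the 40. It had 89.4, 70.3 and 86.8 CPM in controls, and 104 and 62.8 CPM after treatment, so that replicate 1 was above and replicate 2 below all controls. The fold change of 0.02 ± 0.29 was -0.39 without anti-PD-L1 replicate 1, and it turned to -0.025 when scaled by library totals only. The other UTP-B members, Wdr36 and Utp18, had -0.39 ± 0.25 and -0.44 ± 0.30. Utp20, a very long scaffold protein of the processome, had the lowest fold of the 40 at -1.01 ± 0.51. It had 39.2, 48.0 and 27.1 CPM in controls and 29.0 CPM in anti-PD-L1 replicate 2, within their range, while replicate 1 stood at 8.81 CPM, from 95 counts.

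Emg1 methylates a modified base of the small subunit RNA. It had 184, 183 and 159 CPM in controls, and 160.2 and 153 CPM after treatment, and the groups overlapped (-0.16 ± 0.23). Ddx10, a DEAD-box helicase of the same particle, had 105, 75.8 and 96.7 CPM in controls, and 67.5 and 93.0 CPM after treatment. Its fold change of -0.20 ± 0.27 was 0.0082 without anti-PD-L1 replicate 1. Nop14 and Noc4l, which work as a pair in the processome, had -0.65 ± 0.27 and -0.54 ± 0.25, each with both treated libraries under the controls.

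Late small subunit factors accompany the particle to the cytoplasm and complete it there. All 5 members were below 0, against 51.9% of all tested genes, with a median of -0.70. Nob1, the endonuclease that makes the last cut of the small subunit RNA, had 121, 95.01 and 93.7 CPM in controls, and 46.5 and 74.8 CPM after treatment. Ltv1, a factor that must leave before the subunit matures, had 143, 109.7 and 120 CPM in controls, and 60.2 and 88.3 CPM after treatment. Neither gene overlapped between groups, and the fold changes were -0.77 ± 0.29 for Nob1 and -0.74 ± 0.27 for Ltv1. Tsr1, a GTPase-like factor, had -0.70 ± 0.30 with no overlap.

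Rrp12, which acts in subunit export, had 43.6, 35.4 and 64.6 CPM in controls, the second widest ratio of highest to lowest control (1.83), and 31.0 and 38.5 CPM after treatment. Its treated replicate 2 lay within the controls (-0.46 ± 0.33). Bysl, known as bystin, had -0.21 ± 0.26 with the same overlap.

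All 18 large subunit factors had a fold change below 0, against 51.9% of all tested genes, with a median of -0.55. Both anti-PD-L1 libraries lay below every control for 13 of the 18, against 9.58% of all tested genes. Pes1, Bop1 and Wdr12 form the PeBoW complex, which is needed to process the spacer next to the large subunit RNA. Wdr12 had 132, 103 and 78.2 CPM in controls, and 54.2 and 60.8 CPM after treatment, a fold change of -0.86 ± 0.29 with no overlap. Its partners were closer to the controls. Pes1 had 218, 135 and 186 CPM in controls, and 145 and 152 CPM after treatment (-0.28 ± 0.27). Bop1 had 207, 146 and 189 CPM in controls, and 128 and 150.05 CPM after treatment (-0.37 ± 0.26). Both overlapped the controls, and whether the 3 partners differ from each other was not tested.

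**Figure D3:**
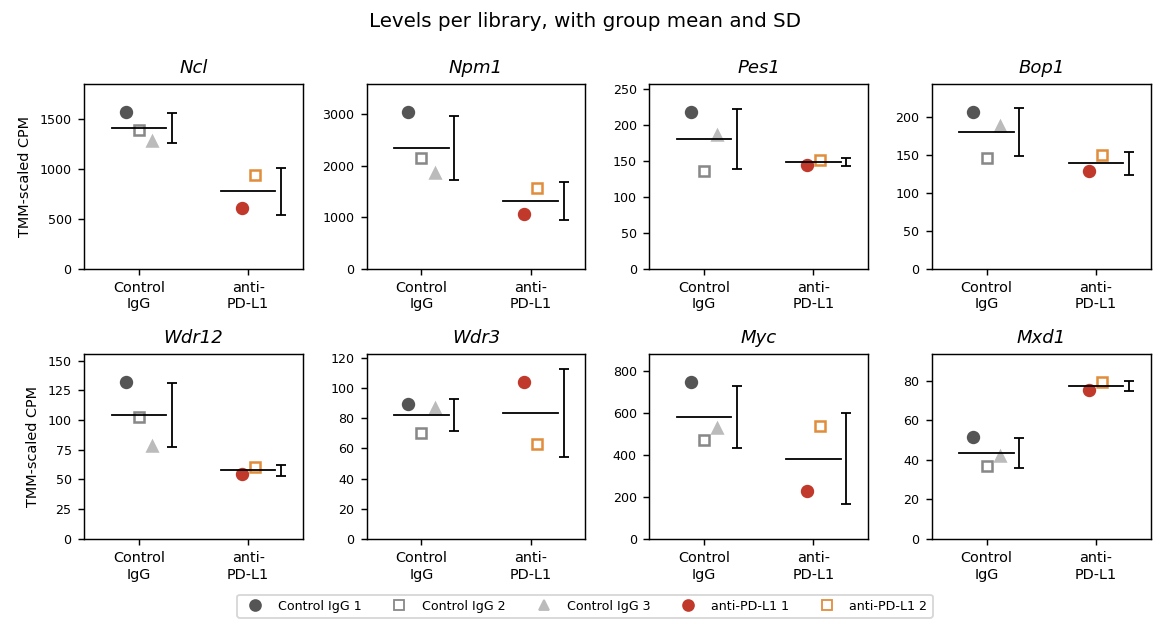
TMM-scaled CPM (vertical axes, from 0) of Ncl, Npm1, the PeBoW genes Pes1, Bop1 and Wdr12, the exception Wdr3, and Myc and Mxd1, with 1 point per library, a line at the group mean and a bar of 1 SD. Ncl, Npm1 and Wdr12 show no overlap between groups, Pes1 and Bop1 overlap, and the 2 treated Wdr3 values lie on either side of the controls.

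DEAD-box helicases of the large subunit were lower in both treated libraries. Ddx18 was among the steadiest genes of the set in controls, at 137.5, 137.3 and 134.6 CPM, and had 98.2 and 105 CPM after treatment (-0.42 ± 0.22). Ddx56 had 176, 117 and 136 CPM in controls, and 88.7 and 93.8 CPM after treatment (-0.65 ± 0.26). For these 2 helicases the treated libraries were close to each other, unlike for Ncl or Gnl3.

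The GTPases Gtpbp4 and Gnl2 act at successive steps of large subunit maturation in the nucleus. Gtpbp4 had 223, 191 and 172 CPM in controls, and 142.8 and 143.0 CPM after treatment (-0.45 ± 0.24). Gnl2 had 161, 108 and 129 CPM in controls, and 85.5 and 117 CPM after treatment (-0.39 ± 0.28). Gtpbp4 did not overlap between groups, and Gnl2 did in replicate 2.

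The RNA methyltransferases Nop2, which modifies a cytosine of the large subunit RNA, and Ftsj3, which methylates riboses, were both under the controls in both treated libraries. Nop2 had 152, 113 and 152 CPM in controls, and 82.0 and 105 CPM after treatment (-0.57 ± 0.26). Ftsj3 had 257, 197 and 213 CPM in controls, and 119 and 169.95 CPM after treatment (-0.62 ± 0.27). Of the other large subunit members, Nop16, Ebna1bp2, Rrp1b, Mrto4, Rrs1, Brix1 and Nip7 had fold changes from -0.75 (Nop16) to -0.36 (Nip7), each with no overlap between groups. Noc2l and Noc3l, nucleolar complex proteins, had -0.56 ± 0.29 and -0.24 ± 0.36 and overlapped the controls.

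Proportions among the members were also set side by side. Set against the median member of the same library, 19 members lay under and 11 over the range of the 3 controls in anti-PD-L1 replicate 1. In replicate 2, 11 lay under and 4 over it. The share over all genes was not computed on this scale. On TMM-scaled CPM, 3464 of 11299 tested genes lay under and 2973 over that range in replicate 1. In replicate 2 these were 2358 and 2447. The member counts are therefore not read as a trait of these genes. Utp20 lay at -3.14 on the log2 scale in replicate 1 and at -1.93 to -1.15 in controls. Gnl3 lay at -1.25 there, against -0.62 to -0.02, and Nob1 at -0.76, against -0.18 to -0.15. In the other direction Wdr3 lay at 0.40, against -0.62 to -0.26, and Emg1 at 1.02, against 0.42 to 0.78. In anti-PD-L1 replicate 2 these 5 genes lay at -1.63, -0.42, -0.27, -0.52 and 0.76, all but Nob1 within the controls. Others left the control range in replicate 2, such as Ncl at 3.38, against 3.52 to 3.70, and Noc3l at -1.85, against -2.34 to -2.30. These 7 genes were picked after their values were seen.

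Related lists of ribosome production genes leaned the same way to different degrees, while MYC and its partners, given below, did not. No list was tested as a set. Over all tested genes, 51.9% had a fold change below 0. Both treated libraries lay below every control for 9.58% of them. Of 75 further assembly factors that are not members, 69 had a fold change below 0, with a median of -0.38, and both treated libraries lay below every control for 33 (44.0%). Sdad1 had -0.89 ± 0.31 and Rrp9 -0.71 ± 0.26. Of 15 genes of snoRNP proteins and of factors that assemble snoRNPs, all were below 0 with a median of -0.66. For 12 of them (80.0%) both treated libraries were below every control. Dkc1, the pseudouridine synthase dyskerin, had -0.78 ± 0.28 and Nop58 -0.78 ± 0.32. Of 15 genes of RNA polymerase I and its factors, 14 were below 0 with a median of -0.28, and 3 (20.0%) were below every control. With so few genes, 3 is not far from the 9.58% of all tested genes. Polr1b, the second largest subunit, had -0.63 ± 0.28, and Cd3eap, another subunit, had -0.57 ± 0.29. In these 3 lists, and among 80 tested ribosomal protein genes, 0 genes passed an adjusted p of 0.05 in edgeR.

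Cytosolic ribosomal proteins, the cargo of these factors, followed another pattern over the libraries. Their median lay at 0.35 in Control IgG replicate 1, at -0.15 and -0.19 in the other controls, and at -0.21 and -0.08 in anti-PD-L1 replicates 1 and 2. Of 80 tested genes, 66 had a fold change below 0 (82.5%, against 51.9% of all genes), with a median of -0.16. Both treated libraries lay below every control for 8 (10.0%), against 9.58% of all genes. Between the libraries numbered 1 all 80 were lower after treatment, against 50.3% of all genes. Without the libraries numbered 1 the median log2 CPM difference of the 80 genes was 0.10, while that of the 40 assembly factors was -0.28. The leading ones by p were Rpl14 at -0.43 ± 0.28 and Rps4x at -0.36 ± 0.24.

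**Figure D4:**
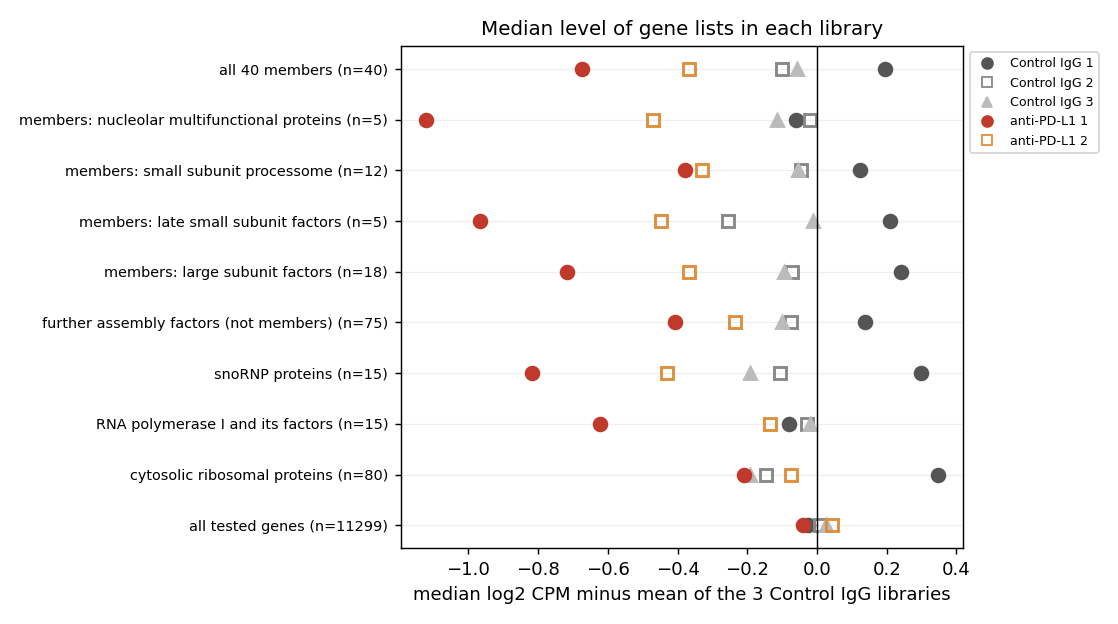
Median log2 CPM of each gene list in each library, as the difference from the mean of the 3 controls (horizontal axis). The members, the further assembly factors, the snoRNP proteins and the polymerase I genes have both anti-PD-L1 libraries left of all controls, while for ribosomal proteins anti-PD-L1 replicate 2, at -0.08, lies within the controls.

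Myc itself had 746, 469 and 525 CPM in controls, and 229 and 535 CPM after treatment. Replicate 1 was below the controls and replicate 2 within them, with a log2 fold change of -0.60 ± 0.39. Without both libraries numbered 1 it was 0.091. Mxd1, which competes with MYC for the partner MAX and represses its targets, had 51.8, 36.7 and 42.2 CPM in controls, and 75.7 and 79.5 CPM after treatment. Both treated libraries lay above the controls, at 0.83 ± 0.26, and the adjusted p was 0.9999 in edgeR. Max had 0.10 ± 0.28. Mxd1 was the gene of smallest p among the 9 tested genes in the list of MYC and its partners. Of these 9, 2 had a fold change below 0 (22.2%, against 51.9% of all tested genes), with a median of 0.08. Both treated libraries lay above every control for 1 of the 9 (11.1%, against 7.74% of all tested genes). They lay below every control for 0, against 9.58%. Whether Myc or Mxd1 levels bear on the 40 genes was not tested.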

How the data were processed

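The authors deposited whole-number read counts per gene symbol, not normalized, for 5 poly(A) libraries amplified by a Smart-seq2 protocol (8 and 12 PCR cycles, 5000 to 30000 sorted cells), per the labels' protocols. TopHat, HTSeq and build mm10 are named per the submitters' processing notes, while for versions, gene annotation and strand setting the sources used here give nothing. The 5 counter lines were left out, and reads without a feature made up 7.46% to 15.2% of counts. The chemistry marks neither strand nor molecule, so intervals cover counting error only and reads of overlapping genes on opposite strands are not told apart.

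All genes were fitted with edgeR 4.0.16 (quasi-likelihood, two-sided, TMM scaling, filterByExpr with a minimum count of 10, 11299 genes kept) in R 4.3.3, with Benjamini-Hochberg adjustment over all of them. CPM is scaled by TMM factors, except for markers. Log2 CPM used a prior count of 2. The standard error is the fold change divided by the root of F. Alternatives used DESeq2 1.42.0 and limma 3.58.1. The code was also run on counts simulated from the fitted dispersions, with changes larger than the member median and no libraries standing apart. Nothing here rests on that simulation.

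The members and lists were chosen with earlier results of these data known. Values in every library are given for Ncl, Npm1, the PeBoW genes, helicases, GTPases, methyltransferases and Nob1, for the 5 members of smallest p in each direction (only 1 was above 0), and for the 2 of widest control range. Values for Utp15, Utp20 and the relative levels were added after they were seen. From each related list the 2 genes of smallest p are named, and Max. Coordinates come from GENCODE vM21 and RefSeq on GRCm38, the assembly that mm10 denotes.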

Additional observations from a re-analysis of the deposited data

How the results depend on the processing

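With 2 anti-PD-L1 libraries, 1 of them apart from the rest, the size of the difference is poorly measured. Of the 40 members, 0 passed under each of 12 alternatives (DESeq2, limma-voom, DESeq2 size factors in edgeR, library totals only, no filter on low counts, a replicate block, each of 5 libraries left out, and both libraries numbered 1 left out), and 37 to 40 had a fold change below 0. Both treated libraries (or the remaining one) lay below every remaining control for 25 to 35, while the same share of all genes ran from 7.60% to 31.8%, higher with fewer libraries (30.4% where the count was 35). The share of all genes with a fold change below 0 ran from 48.8% to 55.3% under these alternatives. The member median was -0.51 with DESeq2, -0.54 in limma-voom and -0.54 with library totals only. With 1 library left out it ran from -0.66 to -0.39. Without both libraries numbered 1 it was -0.31. Between these 2 libraries alone, an alternative chosen after seeing the data, it was -0.86. Over all genes 0 passed in edgeR, 4 in DESeq2 (Gzmc, Gzme, Serpinb9b and Serpine2), 5 in edgeR without a filter on low counts (the same 4 and Gzmf) and 1 without both libraries numbered 1 (Gzma).

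Of 372 fold changes of 31 named genes under these alternatives, 9 changed sign. Wdr3 turned to -0.025 in limma-voom, to -0.025 with library totals only and to -0.34 without both libraries numbered 1, and with 1 library left out it ran from -0.39 to 0.37. Ddx10 ran from -0.42 to 0.0082 with 1 library left out and was 0.094 without both libraries numbered 1. Max ran from -0.0022 to 0.22 with 1 library left out, and Myc was 0.091 without both libraries numbered 1. Where 1 anti-PD-L1 library was left, it was assumed to vary like the controls. The cause was not tested.

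The labels give both groups replicate numbers 1 and 2 without saying what they share. Deviations of Control IgG replicate 1 from its group mean correlated at 0.33 across genes with those of anti-PD-L1 replicate 1, replicate 2 with replicate 2 at 0.37, and Control IgG replicate 3 with anti-PD-L1 replicate 2 at 0.16. Genes are not independent, and with 2 treated libraries, whose deviations mirror each other, these are not separate values. With the replicate block the member median was -0.56, 0 genes passed and 39 members were below 0, against 50.4% of tested genes. Control IgG replicate 3 has no treated library of its number, so it adds nothing to the treatment difference in that fit. The difference then rests on 2 pairs, with little left to measure spread, and 0 genes passing says little.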

Other observations

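Exons of 17 of the 40 genes share bases with a gene on the opposite strand in GENCODE vM21, and the counting is not stated to use strand. The longest shared stretches were 1240 bases between Tsr1 and Srr, 820 bases between Wdr3 and Spag17, 598 bases between Noc2l and Samd11 and 361 bases between Bysl and Ccnd3. Srr had 36 to 63 counts per library and Samd11 at most 7. Spag17 had at most 1 count in any library. Ccnd3, which encodes cyclin D3, had 2965, 2545 and 3919 counts in controls and 4591 and 3437 after anti-PD-L1, more than Bysl in every library. The part of these neighbours in the values of the members was not tested.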
